A study of Mus musculus with 6 samples.

Results

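The Hox cluster genes of the mouse were followed in spheroids of 4T1, a mouse triple-negative breast cancer line. Members were all protein-coding genes of the count table whose GENCODE M21 symbol is Hox, a cluster letter from a to d and a number. This rule found 39 of 48820 gene identifiers: 11 in the HoxA cluster, 10 in HoxB, 9 in HoxC and 9 in HoxD. RNA of 6 libraries was sequenced, 3 from wild-type (WT) spheroids and 3 from spheroids labelled as a double knockout (dKO) of LATS1 and LATS2, a pair of Hippo pathway kinases known to restrain the coactivators YAP and TAZ. All spheroids were cultured in RPMI medium with fetal bovine serum and antibiotics. The labels number biological replicates, but give neither separate cultures nor how many clones stand behind the knockout, so p-values here reflect only how these libraries spread, which may be technical.

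Hox genes encode homeodomain transcription factors that give cells their position along the head-to-tail axis, and their paralog number follows their order in the cluster, from genes of the head end at low numbers to genes of the tail end, limb and genital tract at high numbers. Adult cells keep much of this pattern, with Polycomb complexes holding Hox genes silent, MLL/COMPASS complexes keeping them active and retinoic acid inducing genes at the low-numbered end. Many Hox proteins bind DNA together with TALE homeodomain cofactors of the PBX and MEIS families, and Hoxa5 has been studied in mammary epithelium for its part in differentiation.

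Promoter sequences from RefSeq (build GRCm38.p6) were matched by symbol for 22 of the 39 genes (9 in HoxA, 3 in HoxB, 1 in HoxC and 9 in HoxD), with 24 start sites. The 250 bases before 4 HoxA start sites are printed 5′ to 3′: Hoxa2, because its fitted fall was the largest, Hoxa5 as the most abundant Hox gene per length, Hoxa10 as the last clearly expressed gene of the cluster, and its neighbour Hoxa11, which was not detected. They lie on the minus strand, at chr6:52164832-52165081, chr6:52204588-52204837, chr6:52240855-52241104 and chr6:52245811-52246060 in the same order. For Hoxa10 RefSeq gives another start site, at 52234939, which is not printed, and which of them these cells use was not tested. Capitals mark matches to the PBX-HOX and MEIS motifs described after the sequences.
Hoxa2: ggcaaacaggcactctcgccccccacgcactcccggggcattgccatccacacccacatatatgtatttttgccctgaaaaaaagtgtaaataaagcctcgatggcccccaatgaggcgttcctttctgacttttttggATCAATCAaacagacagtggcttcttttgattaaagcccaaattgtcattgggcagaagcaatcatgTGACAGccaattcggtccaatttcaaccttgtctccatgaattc
Hoxa5: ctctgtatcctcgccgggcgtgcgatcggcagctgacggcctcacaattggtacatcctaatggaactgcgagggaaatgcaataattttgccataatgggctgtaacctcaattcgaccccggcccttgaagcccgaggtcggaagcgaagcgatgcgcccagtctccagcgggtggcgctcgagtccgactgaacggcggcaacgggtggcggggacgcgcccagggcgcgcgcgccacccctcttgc
Hoxa10: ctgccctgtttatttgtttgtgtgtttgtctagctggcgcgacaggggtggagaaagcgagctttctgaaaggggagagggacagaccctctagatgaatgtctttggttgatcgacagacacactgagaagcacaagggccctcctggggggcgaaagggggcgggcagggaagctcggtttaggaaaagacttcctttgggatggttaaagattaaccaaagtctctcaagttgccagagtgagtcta
Hoxa11: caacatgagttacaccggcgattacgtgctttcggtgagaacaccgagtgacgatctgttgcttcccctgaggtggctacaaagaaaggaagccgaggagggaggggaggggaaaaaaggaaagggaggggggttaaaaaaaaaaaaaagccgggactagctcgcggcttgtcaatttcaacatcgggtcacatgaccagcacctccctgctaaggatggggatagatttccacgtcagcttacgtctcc

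Motifs were searched on both strands by their letters alone. The composite motif of PBX with HOX proteins, TGATTNAT, was in 2.82% of all 32851 RefSeq promoters of this length and in 2 of the 24 Hox promoters, those of Hoxa2 and of 1 start site of Hoxd11. The Hoxa2 match begins at position -111 and lies on the opposite strand, so that it reads ATCAATCA in the printed line. The MEIS motif TGACAG was in 15.9% of all promoters and in 2 of the 24, those of Hoxa2, at position -44, and Hoxa3. The motif of the YAP/TAZ partners TEAD, GGAATG, was in 12.6% of all promoters and in 1 of the 24, that of Hoxa9. The windows of Hoxa5, Hoxa10 and Hoxa11 held none of these letters. The Hoxa5 window held 28 CpG dinucleotides and that of Hoxa2 held 6, beside a median of 12.5 over the 24 Hox promoters and 6 over all promoters.

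Total counts ran from 38194478 to 49630116 per library. Levels are counts scaled to the library total (CPM) with TMM factors, and a gene was called at an edgeR adjusted p under 0.05. Calls were made for 57.3% of 15807 tested genes, with 28.6% higher and 28.7% lower in those labelled dKO. Lats1 stood at 158, 146 and 155 CPM in WT and at 51.5, 53.0 and 48.0 CPM in the libraries labelled dKO, a log2 fold change of -1.59 ± 0.07 (SE, edgeR adjusted p = 4.66e-07). Lats2 went against the label: it stood at 28.3, 30.5 and 22.7 CPM in WT and at 86.7, 83.3 and 63.5 CPM in the libraries labelled dKO, a log2 fold change of 1.52 ± 0.15 in edgeR (adjusted p = 3.46e-05). A count per gene does not show small insertions or deletions, so all directions below are between libraries as labelled. On the second principal component, which held 4.82% of the variance, WT 2 and dKO 3 each stood away from the rest of their group. All 10 epithelial markers were above the detection floor, with sums of 6497 to 6614 CPM in WT and of 5155 to 5876 CPM in those labelled dKO. The markers moved in both directions: 2 were called higher (Cdh1 and Krt19), 5 lower (Epcam, Krt8, Krt18, Cldn7 and Esrp1) and 3 did not pass.

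Expression was almost confined to the HoxA cluster and was lower in the libraries labelled dKO. A gene was taken as detected above 12 counts in at least 1 library, a floor of 3 read pairs that corresponds to 0.243 to 0.314 CPM. By this limit 13 of the 38 genes described were detected: 9 of 10 in HoxA, 0 of 10 in HoxB, 1 of 9 in HoxC and 3 of 9 in HoxD. The summed level of these 10 HoxA genes was 433.6, 448.7 and 415.7 CPM in the WT libraries and 163.9, 161 and 186.6 CPM in the libraries labelled dKO. They made up 98.6 to 98.9% of the CPM of the 38 genes in WT and 97.1 to 97.2% in the libraries labelled dKO. The summed levels of the groups lay far apart, with means of 432.7 ± 16.6 CPM in WT and of 170.5 ± 13.97 CPM in those labelled dKO (SD, n = 3). In bulk RNA, fewer cells that express a gene and less RNA of it per cell cannot be told apart.

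**Figure D1:**
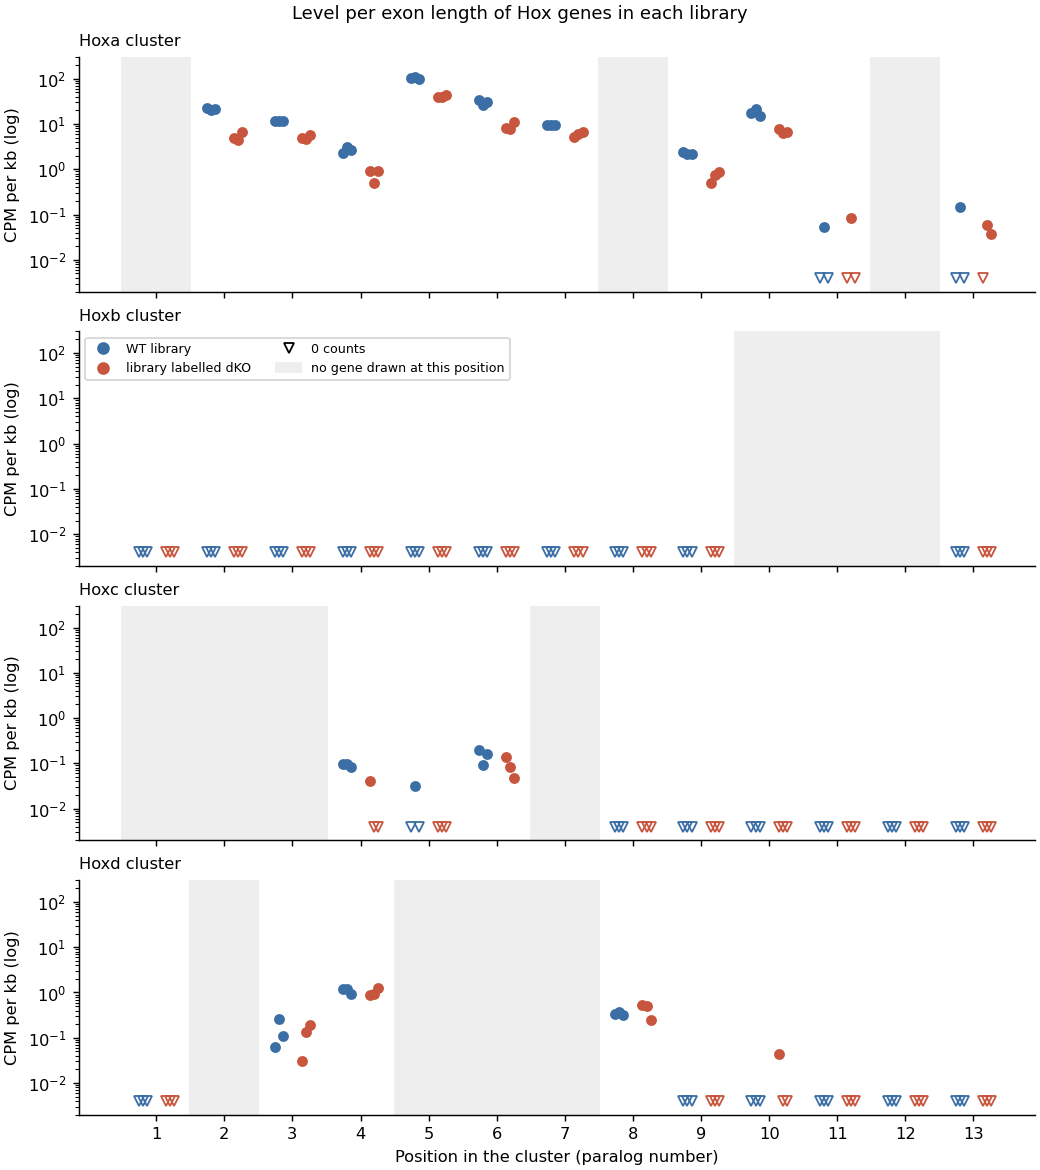
Level of the Hox genes described in each library, in CPM per kilobase of annotated exons on a log axis, against the position in the cluster, with 1 panel per cluster; points are libraries, open triangles are libraries with 0 counts, and grey marks positions without a gene drawn. Hoxa2 to Hoxa10 carry signal in all 6 libraries, while all 10 HoxB genes are at 0 in every library.

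Of these 38 genes, 12 passed the count filter and were tested: 8 fell and 4 did not pass, beside 28.7% of all tested genes called lower. All 8 belonged to HoxA, and each was above the floor in all 6 libraries, so none entered the test through a single group. For each of the 8 the WT range and the range labelled dKO were separate, as they were for 65.6% of all tested genes. The median log2 fold change of these 8 genes was -1.51, beside -0.005 over all tested genes. By position, 2 of the falls were of the anterior groups 1 to 3, 4 of the central groups 4 to 8 and 2 of the posterior groups 9 to 13. Hoxa2 and Hoxa3 share exonic bases with the same annotated gene, while Hoxa5, Hoxa6 and Hoxa10 share none with any. Neighbouring genes of 1 cluster are not taken as independent of each other.

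Several markers of other cell types also differed between the groups. Their calls stand beside 57.3% of all tested genes called, 28.6% higher and 28.7% lower. With so few markers tested, no shift of a cell type is read from the counts of calls. Fibroblast markers were above the floor for 9 of 12 genes and summed to 41.8 to 67.1 CPM in WT and to 12.1 to 12.9 CPM in those labelled dKO, with Thy1 and Lum at 0. Their tested members moved in both directions: Pdgfra, Col1a1 and Pi16, which carried the WT sum, fell, while Postn rose from 0.433 to 6.14 CPM and Col1a2 from 0, 4 and 0 counts to 28, 38 and 21 counts (edgeR adjusted p = 0.00607 and 0.00648). Endothelial and pericyte markers were above the floor for 6 of 10 genes, with Kdr and Emcn at 0. They summed to 22.9 to 27.0 CPM in WT and to 4.28 to 6.76 CPM in those labelled dKO. Most of both sums was the single gene Flt1, at 22.6, 24.4 and 20.3 CPM in WT and 4.40, 5.11 and 3.23 CPM in those labelled dKO. Among the 4 tested, 2 fell (Flt1 and Rgs5). The other 2, Pecam1 and Cspg4, did not pass and had fitted changes of opposite sign. Leukocyte markers had 6 of 10 above the floor and higher sums in those labelled dKO, at 82.1 to 214.5 CPM against 16.2 to 53.5 CPM in WT, and Cd3e and Tyrobp were at 0. Of 4 tested, 3 rose (Csf1r, Cd68 and Itgam) and 1 fell (Cd14). Csf1r, which carried most of the sum labelled dKO, stood at 3.55, 14.2 and 1.01 CPM in WT. It stood at 188, 190 and 62.7 CPM in those labelled dKO (edgeR adjusted p = 0.0183). Cd68 rose from 2.15 to 15.6 CPM (edgeR adjusted p = 2.35e-06). Itgam, with 0 counts in WT and 13, 13 and 20 in those labelled dKO, entered the test through that group alone. Cd14, the highest of them in WT, stood at 13.9, 37.2 and 12.9 CPM there and at 5.63, 5.87 and 5.12 CPM in those labelled dKO (edgeR adjusted p = 0.00433). The markers named with values here were chosen after their values were seen. Their part in the Hox results was not tested.

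In the anterior part of HoxA, Hoxa2 and Hoxa3 fell. Hoxa2 (chr6:52162417-52164831, minus strand, ENSMUSG00000014704), which patterns the second pharyngeal arch and whose promoter held the PBX-HOX and MEIS letters, stood at 39.6, 35.9 and 38.5 CPM in WT and at 8.82, 7.84 and 12.1 CPM in the libraries labelled dKO. All 3 libraries labelled dKO were low, and dKO 3 was the highest of them. The log2 fold change was -1.99 ± 0.16 (edgeR adjusted p = 1.18e-05), the largest fitted fall among the Hox genes, ahead of Hoxa4 by less than the SE of the latter. Hoxa3 (chr6:52169062-52213336, minus strand), which acts in the development of thymus and parathyroid, stood at 70.6, 69.3 and 69.99 CPM in WT and at 29.3, 28.0 and 34.7 CPM in the libraries labelled dKO. The WT libraries were nearly equal and all above the others, with a log2 fold change of -1.19 ± 0.10 in edgeR (adjusted p = 1.20e-05). Hoxa2 shares 267 of its 1775 exonic bases with an annotated gene on the same strand. Hoxa3 shares 1631 of 6014 with that gene and with others on the other strand. Reads in these bases cannot be assigned to 1 gene: strand does not separate the former, and the strand setting was not given.

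All 4 central HoxA genes fell. Hoxa5 (chr6:52201754-52204587, minus strand, ENSMUSG00000038253) shares no exonic base with another annotated gene and had the highest level per length of all Hox genes in both groups. It stood at 193.9, 207 and 186 CPM in WT and at 74.8, 75.8 and 82.4 CPM in the libraries labelled dKO. The gap between the groups was wider than the range within either, with a log2 fold change of -1.33 ± 0.07 in edgeR (adjusted p = 1.23e-06). Hoxa6 (chr6:52206288-52208722, minus strand), also free of exonic overlaps, stood at 29.2, 23.1 and 26.9 CPM in WT and at 7.27, 6.63 and 9.73 CPM in the libraries labelled dKO. The lowest WT library was above the highest library labelled dKO, and the log2 fold change was -1.74 ± 0.17 (edgeR adjusted p = 3.67e-05).

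Hoxa4 (chr6:52189671-52191753, minus strand) was, with Hoxa9, at the low end of these 8 genes per length, at 3.61, 5.04 and 4.16 CPM in WT and at 1.47, 0.786 and 1.44 CPM in the libraries labelled dKO. The groups did not overlap, and the log2 fold change of -1.79 ± 0.33 in edgeR (adjusted p = 0.00143) had the widest error of the called Hox genes. Hoxa7 (chr6:52214491-52221854, minus strand) stood at 27.5, 27.0 and 27.6 CPM in WT and at 14.8, 16.9 and 19.2 CPM in the libraries labelled dKO. It had the smallest of the 8 falls, with a log2 fold change of -0.69 ± 0.12 in edgeR (adjusted p = 0.0012), and it did not pass when tested against a 1.5-fold change (edgeR adjusted p = 0.206). Hoxa4 shares 16% of its exonic bases with Gm29430 and Hoxa7 20.4% with Hoxaas3, both on the other strand.

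At the posterior end, Hoxa9 and Hoxa10 fell, and Hoxa11 and Hoxa13 were at or near 0. Hoxa9 (chr6:52223100-52231089, minus strand), known for its part in blood stem cells and leukaemia, stood at 13.3, 12.3 and 11.9 CPM in WT and at 2.77, 4.15 and 4.98 CPM in the libraries labelled dKO. Its groups did not overlap, with a log2 fold change of -1.65 ± 0.23 in edgeR (adjusted p = 0.000259). Hoxa10 (chr6:52231197-52240854, minus strand), which acts in the uterus, stood at 55.8, 68.5 and 50.1 CPM in WT and at 24.8, 20.5 and 21.9 CPM in the libraries labelled dKO. WT 2 was the highest library and all WT libraries were above the others, with a log2 fold change of -1.37 ± 0.13 in edgeR (adjusted p = 3.33e-05).

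The step from Hoxa10 to its neighbour Hoxa11, whose promoter windows are printed above, was a step from over 20 CPM in every library to the floor. Hoxa11, a gene of limb and uterine development, had 5 counts in WT 2, 8 counts in dKO 2 and 0 in the other 4 libraries. Hoxa13, a gene of the distal limb and genital tract, had 15 counts in WT 2, 6 in dKO 2, 4 in dKO 3 and 0 in the others. Neither was tested, and a difference between groups was not detectable at this depth.

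**Figure D2:**
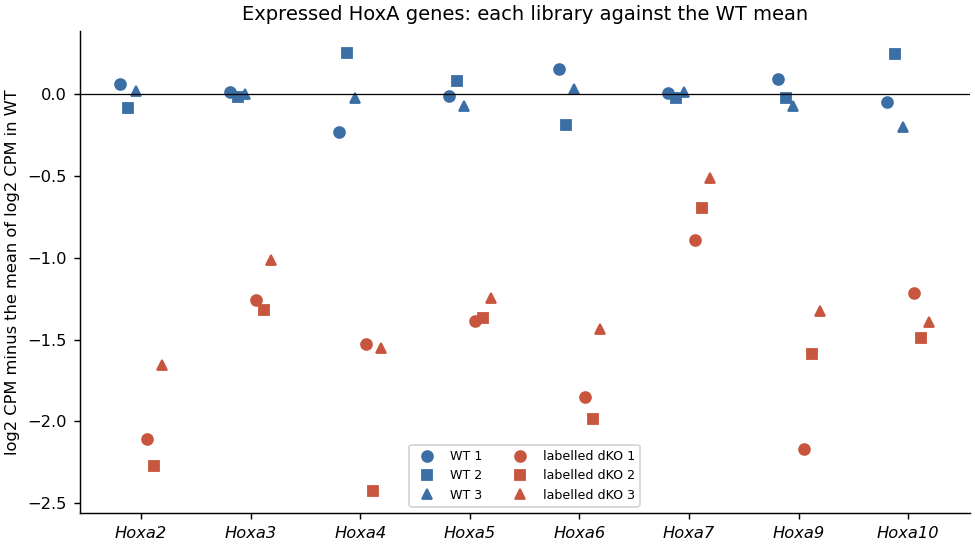
Expressed HoxA genes in cluster order, as the log2 CPM of each library minus the mean of log2 CPM of the 3 WT libraries; symbols mark the replicate number and colours the group. The libraries labelled dKO lie below all WT libraries for each of the 8 genes drawn, between -2.43 for Hoxa4 and -0.51 for Hoxa7.

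Within the group labelled dKO, the size of the fall varied between libraries. Relative to the WT mean of log2 CPM, Hoxa2 stood at -2.11 in dKO 1, -2.28 in dKO 2 and -1.66 in dKO 3. Hoxa9 stood at -2.17, -1.59 and -1.33, and Hoxa4 at -1.53, -2.43 and -1.55, in the same order. Hoxa5 varied least, at -1.39, -1.37 and -1.25. The library labelled dKO 3, which lay apart from its group across all genes, held the highest level of the 3 for 6 of the 8 genes that fell. Without WT 2 and dKO 3 the same 8 genes were called lower, and Hoxa2 had a log2 fold change of -2.23.

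Per kilobase of annotated exons, the scale on which genes can be set against each other, Hoxa5 led both groups. Its level was 104.3 ± 5.57 CPM per kb in WT and 41.4 ± 2.22 CPM per kb in the libraries labelled dKO (SD, n = 3), above 97.4% and 91.8% of 15741 tested genes with a length. In WT it was followed by Hoxa6 at 30.2, Hoxa2 at 21.4, Hoxa10 at 17.8, Hoxa3 at 11.6 and Hoxa7 at 9.52 CPM per kb, then Hoxa4 at 2.68 and Hoxa9 at 2.24. The ranges of Hoxa2 and Hoxa10 overlapped, as did those of Hoxa4 and Hoxa9, so these neighbours in the order did not differ beyond their spread.

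By this length, the middle of the order was compressed in the libraries labelled dKO. Hoxa6, Hoxa10, Hoxa7, Hoxa2 and Hoxa3 ran from 9.01 down to 5.10 CPM per kb, and the ranges of all neighbours among these 5 genes overlapped. Hoxa4 at 0.773 and Hoxa9 at 0.711 CPM per kb overlapped at the bottom. Hoxa2, above 83.2% of tested genes in WT, was above 51.5% in the libraries labelled dKO, where the median gene stood at 5.04 CPM per kb. Hoxa3 went from 69.8% to 50.2%.

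Shares of the summed level per length of these 8 genes set them against each other within a library. Hoxa5 held 51.1, 54.0 and 51.4% in WT and 55.2, 57.3 and 53.1% in the libraries labelled dKO, with overlapping ranges. The share of Hoxa2 was 11.1, 9.90 and 11.3% in WT and 6.89, 6.27 and 8.20% in the libraries labelled dKO, without overlap. Hoxa7, which fell the least, held 4.73, 4.60 and 4.98% in WT and 7.12, 8.36 and 8.06% in the libraries labelled dKO. With the longest annotated transcript as the length, the order changed. Hoxa3 then stood at 27.0 CPM per kb in WT, after Hoxa6 and ahead of Hoxa10 at 22.7 and Hoxa2 at 21.4, and at 11.8 in the libraries labelled dKO, ahead of Hoxa6 at 9.01. Hoxa9, at 3.88 and 1.23 CPM per kb, then stood above Hoxa4 in both groups, while Hoxa5 still led. Hoxa2 stayed at 5.39 CPM per kb in the libraries labelled dKO, so the middle genes spread wider there than by exon length. The compressed order and the place of Hoxa3 among all tested genes were thus given for the exon length alone.

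Other annotated transcripts within the HoxA cluster moved in both directions. Of 20 such genes, 6 were at 0 in every library and 9 were tested: 2 rose, 5 fell and 2 did not pass, beside 28.6% higher and 28.7% lower among all tested genes. Both rises lay beyond Hoxa2, at the low-numbered end. Hotairm1, a long non-coding RNA gene on the plus strand (chr6:52156902-52162119), rose from 21.3 ± 4.89 to 59.8 ± 4.10 CPM (SD, n = 3), by 1.49 ± 0.16 on the log2 scale (edgeR adjusted p = 4.94e-05). Part of its exonic bases is shared with a gene on the other strand, and reads there can be assigned to either. Gm27477, a short annotated gene at the end of Hotairm1 (chr6:52162125-52162267), rose from 2.54 ± 0.252 to 5.66 ± 0.547 CPM (edgeR adjusted p = 0.0018).

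The 5 falls among these transcripts were on the plus strand, opposite to the Hox genes, and each overlapped the annotated span of Hoxa3. Hoxaas2 (chr6:52165674-52169564) fell from 23.6 ± 0.886 to 7.77 ± 1.07 CPM, and 5730596B20Rik (chr6:52177498-52180851) from 22.6 ± 2.72 to 6.12 ± 0.703 CPM (edgeR adjusted p = 1.69e-05 and 1.06e-05). Hoxaas3 (chr6:52175217-52215076) had a log2 fold change of -0.93 ± 0.18 in edgeR (adjusted p = 0.00222). Gm15050 and Gm29430 had log2 fold changes of -0.66 ± 0.19 and -1.93 ± 0.51 (edgeR adjusted p = 0.0156 and 0.01), and their calls were lost without dKO 1 (0.0566) and without WT 1 (0.0635), respectively. Hoxaas2, Hoxaas3, 5730596B20Rik and Gm29430 share exonic bases with Hoxa3, and reads there can be assigned to either.

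**Figure D3:**
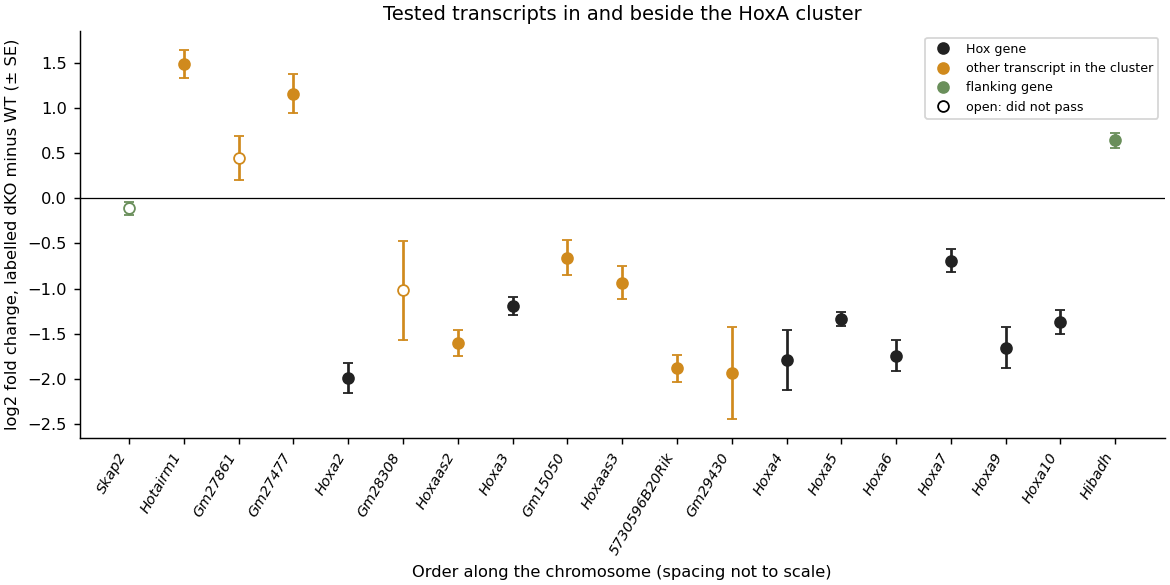
Log2 fold change, labelled dKO minus WT, with its SE, of tested transcripts of the HoxA cluster and of the nearest expressed gene on either side, in chromosome order with spacing not to scale; open points did not pass. Hotairm1 and Gm27477 lie above 0 as filled points, with Gm27861, an open point, between them, and the Hox genes drawn from Hoxa2 to Hoxa10 lie below 0.

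Neither of the nearest expressed genes beside HoxA was called lower. Among all tested genes 28.7% were called lower and 28.6% higher, so no edge of the falls is read from so few flanks. Skap2, an adaptor protein gene 143 kb from the cluster, stood at 187.8 ± 7.08 CPM in WT and at 173.7 ± 8.05 CPM in those labelled dKO, a difference that did not pass (edgeR adjusted p = 0.186). Hibadh, a valine catabolism gene 285 kb beyond Hoxa13, rose from 44.3 ± 3.17 to 68.9 ± 3.74 CPM (edgeR adjusted p = 0.000265). Evx1, the homeobox gene beside Hoxa13, was at 0 in every library. Around the other clusters, Mtx2 (log2 fold change 0.79 ± 0.07), Lnpk (0.52 ± 0.13) and Ttll6 (0, 5 and 0 counts in WT and 18, 38 and 46 in the libraries labelled dKO) rose, Calcoco1 (-0.40 ± 0.09) and Smug1 (-0.36 ± 0.12) fell, and Skap1 did not pass (edgeR adjusted p = 1.71e-05, 0.00734, 0.00814, 0.00419, 0.0284 and 0.0551). With any single library but dKO 3 left out, 1 of these 2 falls was called.

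HoxB was at 0. All 10 HoxB genes (chr11:96194316-96368256) had 0 counts in all 6 libraries, which allows up to 12 counts per library. Of 9 other annotated transcripts in the cluster 8 were also at 0, and Gm11539 did not pass (edgeR adjusted p = 0.117).

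HoxC (chr15:102921103-103036852) held traces of its low-numbered genes. Hoxc4 had 12, 10 and 10 counts in WT and 4, 0 and 0 counts in the libraries labelled dKO, all at or under the floor, and it was not tested. Hoxc6 had 24, 9 and 18 counts in WT and 13, 8 and 5 counts in the libraries labelled dKO, with overlapping ranges and a log2 fold change of -0.76 ± 0.67 in edgeR (adjusted p = 0.365). Hoxc5 had 4 counts in WT 2 alone, and the 6 genes from Hoxc8 to Hoxc13 were at 0 in every library. When dKO 1 was left out, Hoxc4 passed the filter through its WT counts alone, with 0 counts left in the group labelled dKO. It was then called lower (edgeR adjusted p = 0.0193), a direction fixed by that choice, so no fall is read from it.

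In HoxD (chr2:74668310-74765142), Hoxd3, Hoxd4 and Hoxd8 were detected and none passed. Hoxd4, a gene of hindbrain and cervical patterning and the one of them with the highest level per length, stood at 3.47, 3.52 and 2.72 CPM in WT and at 2.56, 2.68 and 3.79 CPM in the libraries labelled dKO. The ranges overlapped, with dKO 3 the highest of all 6 libraries, and the log2 fold change was -0.10 ± 0.27 (edgeR adjusted p = 0.772). Hoxd8 stood at 0.933, 0.992 and 0.862 CPM in WT and at 1.47, 1.35 and 0.675 CPM in the libraries labelled dKO, with a log2 fold change of 0.32 ± 0.43 in edgeR (adjusted p = 0.55). Hoxd3 had 13, 44 and 21 counts in WT and 5, 23 and 34 counts in the libraries labelled dKO, with a log2 fold change of -0.27 ± 0.77 in edgeR (adjusted p = 0.791). Its sign turned when WT 2 (0.47) or dKO 1 (0.18) was left out, so no direction can be read from it. Hoxd10 had 3 counts in dKO 1 alone, and Hoxd1, Hoxd9, Hoxd11, Hoxd12 and Hoxd13 were at 0.

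Gm28230, an annotated gene that joins Hoxd3 and Hoxd4 exons (chr2:74726728-74747918), rose from 0.713 ± 0.112 to 2.40 ± 0.667 CPM, by 1.74 ± 0.37 on the log2 scale (edgeR adjusted p = 0.00314). It shares 53.1% of the exonic bases of Hoxd3 and 39.2% of those of Hoxd4, on the same strand, so the split of reads among the 3 genes is uncertain. The sum of Hoxd3, Hoxd4 and Gm28230 was 4.36, 5.28 and 4.01 CPM in WT and 4.34, 5.85 and 7.52 CPM in the libraries labelled dKO. These sums overlapped between the groups.

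Among the TALE cofactors of Hox proteins, 6 of 8 tested genes fell, 1 rose and 1 did not pass, beside 28.7% lower and 28.6% higher among all tested genes. Their median log2 fold change was -0.83, beside -0.005 over all tested genes. Meis1, which binds DNA with posterior Hox proteins, fell from 24.3 ± 2.23 to 4.33 ± 0.565 CPM (log2 fold change -2.49 ± 0.15, edgeR adjusted p = 2.16e-06). Meis3, of the same family, fell from 21.7 ± 2.03 to 7.35 ± 1.78 CPM (edgeR adjusted p = 0.000122). Pbx4, named after its values were seen, was the single rise, with 0, 13 and 4 counts in WT and 289, 249 and 49 counts in the libraries labelled dKO (edgeR adjusted p = 0.00366). Its counts in dKO 3 were well under those of dKO 1 and dKO 2. Pbx3 did not pass.

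Chromatin regulators of Hox clusters moved in both directions. Of 30 Polycomb genes, 4 rose, 16 fell and 10 did not pass, beside 28.6% higher and 28.7% lower among all tested genes, and their median log2 fold change was -0.30, beside -0.005. Phc2, a subunit of the PRC1 complex, fell from 347 ± 37.0 to 120.6 ± 9.62 CPM, and Cbx6, a chromodomain subunit, from 329.6 ± 3.48 to 150.8 ± 26.6 CPM (edgeR adjusted p = 2.39e-06 and 4.1e-05). Pcgf6, a subunit of a variant PRC1, rose to 50.8 ± 2.78 CPM from 26.2 ± 0.566 CPM (edgeR adjusted p = 2.16e-05), and the other rises, named after their values were seen, were Suz12, Pcgf5 and Cbx7. Of 20 genes of MLL/COMPASS complexes and related factors, 4 rose, 9 fell and 7 did not pass, beside the same shares, and their median was -0.12. Dot1l, Mllt1 and Mllt3, which are in this list, are not subunits of COMPASS complexes. With 57.3% of all tested genes called in either direction, most members of any list could be called, and nothing particular to these lists is read from their counts. Kmt2a, the MLL1 methyltransferase gene, fell from 374 ± 38.7 to 152 ± 8.74 CPM, Mllt3 from 98.7 ± 4.25 to 36.3 ± 4.95 CPM and Mllt1 from 187.5 ± 3.83 to 108.9 ± 4.65 CPM (edgeR adjusted p = 4.27e-06, 6.2e-06 and 1.29e-05). The rises, also named after their values were seen, were Wdr5, Dot1l, Paxip1 and Setd1a.

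Of 18 genes of retinoid signalling and metabolism, 12 were tested: 1 rose, 7 fell and 4 did not pass, beside 57.3% of all tested genes called, 28.7% lower, and their median was -0.87. Rdh10, an enzyme gene of retinaldehyde synthesis, fell from 162 ± 22.7 to 52.8 ± 2.44 CPM (edgeR adjusted p = 3.36e-06). The receptor genes Rxra and Rara fell from 113.6 ± 10.0 to 28.5 ± 7.76 CPM and from 60.8 ± 4.32 to 32.0 ± 0.832 CPM (edgeR adjusted p = 2.4e-05 and 2.64e-05). Aldh1a1, a retinaldehyde dehydrogenase gene named after its values were seen, was the rise, with 6, 8 and 0 counts in WT and 143, 123 and 63 counts in the libraries labelled dKO (edgeR adjusted p = 0.000978). The 6 Cdx and ParaHox genes, relatives of the Hox genes, were at 0 in every library. Tested against a 1.5-fold change, 27 of the members of these lists and of the flanking genes were called by edgeR, against 54 in the test of no change.

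**Figure D4:**
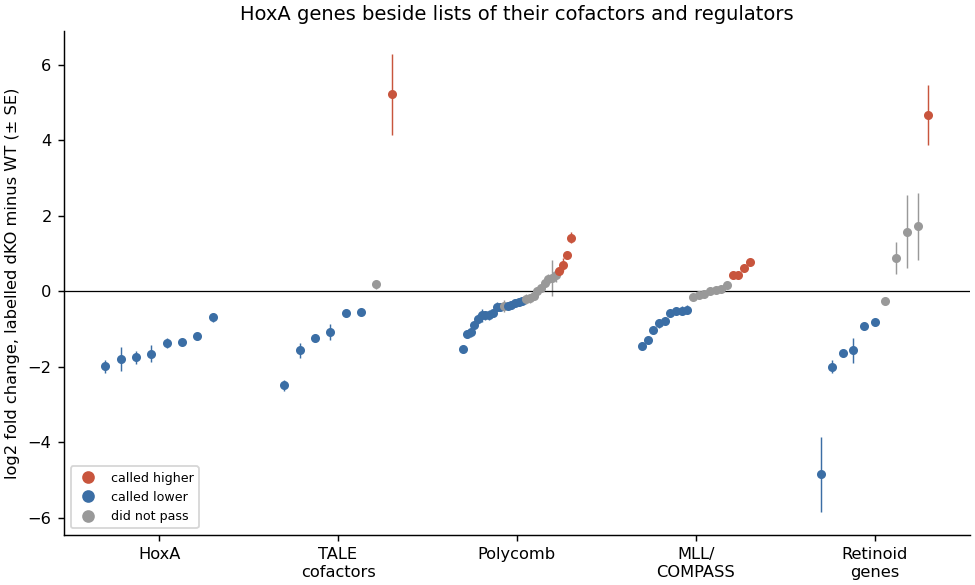
Log2 fold change, labelled dKO minus WT, with its SE, of tested genes of HoxA and of 4 lists, sorted within a list; colours give the call, and Stra6, at 0 in every library labelled dKO, is not drawn. The HoxA genes drawn have 8 falls, and TALE cofactors have 6 falls and 1 rise. Polycomb genes have 16 and 4, and the list labelled MLL/COMPASS, which also holds related genes, 9 and 4. Retinoid genes have 7 and 1 with the fall of Stra6 counted.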

How the data were processed

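Gene expression was compared between 3 WT and 3 libraries labelled dKO. The authors deposited estimated counts per gene as whole numbers without normalization. HISAT2 2.2.1 and StringTie 2.2.1 with GRCm38 (mm10) were used, per the submitters' processing notes; the counting step, its annotation and strand setting were not given in the sources used here. Tables deposited per sample equalled the columns of the series table. Counts piled up at 4, so 1 read pair may add 4 counts, and the floor of 12 counts is 3 read pairs; it covers counting error only.

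Symbols, positions and exon lengths came from GENCODE M21, which matched 48144 of 48820 identifiers; the other 676 held 0.0293% of counts. Differences were tested with edgeR 4.0.16 (R 4.3.3; TMM, filterByExpr, robust quasi-likelihood F-test, genotype only) over 15807 genes, with Benjamini-Hochberg adjustment. The SE is approximate, taken as the size of the log2 fold change over the root of the F statistic. On simulated counts for this comparison 15470 genes were tested. The test found 46.3% of 67 genes simulated with a 1.5-fold change, 88.1% of 67 with a 2-fold and 97.0% of 66 with a 4-fold change, and 9 of 163 calls were false. Only these few genes changed there, none of them with low counts, while 57.3% of tested genes were called in the data. These rates may thus not hold for the data, nor for genes with low counts. Of the genes the rules take, 1 Hox gene and 1 cofactor are not reported here, and counts, sums and medians of Hox genes leave the former out. The members and lists were chosen with earlier results of these data known. Values per library are given for each called Hox gene; other transcripts of the clusters are named where called, from each list the 3 called genes with the smallest adjusted p, and each tested flank. Alternatives were other normalizations, filters and thresholds, DESeq2 1.42.0, counts divided by 4, a replicate block and left-out libraries.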

Additional observations from a re-analysis of the deposited data

How the results depend on the processing

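The 8 Hox falls were called under all 16 alternatives except the test against a 1.5-fold change (7, without Hoxa7). Without dKO 1 the number was 9, with Hoxc4, which passed the filter only through WT counts at or under the floor and is not read as a fall. With each library left out in turn, Hox falls ran from 8 to 9 with Hoxc4 counted, called genes from 8041 to 9120 and called list members from 50 to 56. Against a 1.5-fold change, 4556 of 9060 genes and 27 of 54 list members were called, fewer by construction; Polycomb genes then had 2 rises and 4 falls. Without WT 2 and dKO 3 together, Polycomb genes had 7 rises and 17 falls, while called genes numbered 10139 and called list members 62. Among the tested genes of the clusters, signs turned only for genes that did not pass: Hoxd3 (0.47 without WT 2 and 0.18 without dKO 1, against -0.27, with a lowest value of -0.77), Hoxd4 (0.0045 without dKO 1, against -0.10, lowest -0.30) and the antisense gene Hoxd3os1 (-0.021 without WT 3 and -0.033 without dKO 2, against 0.12, highest 0.29 with 1 library left out and 0.36 without WT 2 and dKO 3 together), and the cause was not tested. Over the alternatives the log2 fold change ran from -2.23 to -1.86 for Hoxa2 and from -1.38 to -1.29 for Hoxa5. The replicate numbers did not pair the libraries (correlations of -0.105, 0.109 and 0.156 between same-numbered libraries); with a replicate block 8658 genes, 53 list members and the same 8 Hox falls were called. Of the 38 genes, 17 had any count and 11 were above the floor in every library of a group, against 13 detected. With the longest transcript as the length the same 5 genes led WT, in another order: Hoxa3 moved from the fifth place to the third. Depth limits HoxC and HoxD, whose genes held at most 171 counts in a library.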
